A study of Homo sapiens with 6 samples.

Results

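The 10 genes described here, for amino acid transporters of the plasma membrane, were measured in cells of the human fibrosarcoma line HT-1080 that had been treated for 4 h with an inhibitor of the kinase IRAK4, as the series names the compound. They were chosen by name as SLC3A2, SLC7A5, SLC7A6, SLC43A1, SLC1A4, SLC1A5, SLC38A1, SLC38A2, SLC6A9 and SLC7A1, and all 10 were among the 20683 gene symbols of the count tables. The inhibitor group had the compound known by the code SLV-8472-01 at a labelled dose of 5 mM. The control group had 0.1% DMSO, also for 4 h. The label does not say whether the 5 mM is a stock or the concentration on the cells. No DMSO content is recorded for the inhibitor group. Both groups grew overnight in MEM with non-essential amino acids and fetal bovine serum before treatment, and each had 3 libraries, described as biological replicates of the 1 cell line. Library totals ran from 7644478 to 11427779 counts in the inhibitor group and from 12003104 to 15336351 in the DMSO group. Summed normalised counts (CPM, counts scaled to 1000000 per library) of 5 mesenchymal markers ran from 5520 to 7580 in the inhibitor group and from 5480 to 6520 in the DMSO group. Nearly all of the sum was VIM (log2 fold change 0.09 ± 0.12, not called), THY1 was near 0, and COL6A3, CD44 and FN1 rose by 0.96 ± 0.14, 0.53 ± 0.14 and 0.49 ± 0.11 on the log2 scale. Summed levels of 4 epithelial markers were 0.804 to 1.43 CPM with the inhibitor and 0.831 to 1.85 with DMSO, mostly CLDN4, and CDH1 had no count. Those of 3 endothelial markers, mostly PECAM1, were 0.653 to 0.807 and 0.509 to 0.914 CPM. Of 3 blood markers PTPRC and CD3E had no count, and the sum reached 0.134 CPM, from 1 count of HBB.

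Cells take up amino acids through solute carriers, membrane proteins that each handle a group of side chains. Several work as exchangers, which let one amino acid in while another leaves, so that their effect depends on which partners are present. The transcription factor ATF4, made when translation slows under amino acid shortage or other stress, is known to raise the mRNA of many of these carriers. Large neutral amino acids such as leucine also feed the growth kinase complex mTORC1.

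Of the 10 transporter genes, 6 rose with the inhibitor, 1 fell and 3 did not pass the test. SLC6A9, SLC1A4, SLC7A5, SLC3A2, SLC7A1 and SLC1A5 rose, from 2.87-fold for SLC6A9 down to 1.36-fold for SLC1A5, and SLC7A6 fell to 55.6% of its DMSO level. SLC38A1, SLC38A2 and SLC43A1 were not called. A gene was called at an adjusted p under 0.05 in edgeR's quasi-likelihood test, fitted over all 11391 genes that passed a filter on low counts, and all 10 transporters passed that filter. Among all tested genes 9.92% rose and 10.3% fell. With library totals as the only scaling, 831 genes rose and 1714 fell in place of 1130 and 1168, and the transporter counts were again 6 and 1. Without DMSO replicate 2, 1405 genes were called in all in place of 2298, and 6 transporter genes rose and 1 fell. The 10 genes were chosen with earlier results of these data known, so their contrasts with all tested genes are a description and not a test. The median log2 fold change of the 10 genes was 0.62, against 0.00 over all tested genes. The normalised counts of the groups did not overlap for 8 of the 10, against 36.3% of tested genes. The transporters took 0.311% to 0.360% of the counts of an inhibitor library and 0.202% to 0.210% of a DMSO library. Most of that sum came from SLC7A5, SLC3A2 and SLC7A1 in every library, so it follows these genes more than the others.

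**Figure D1:**
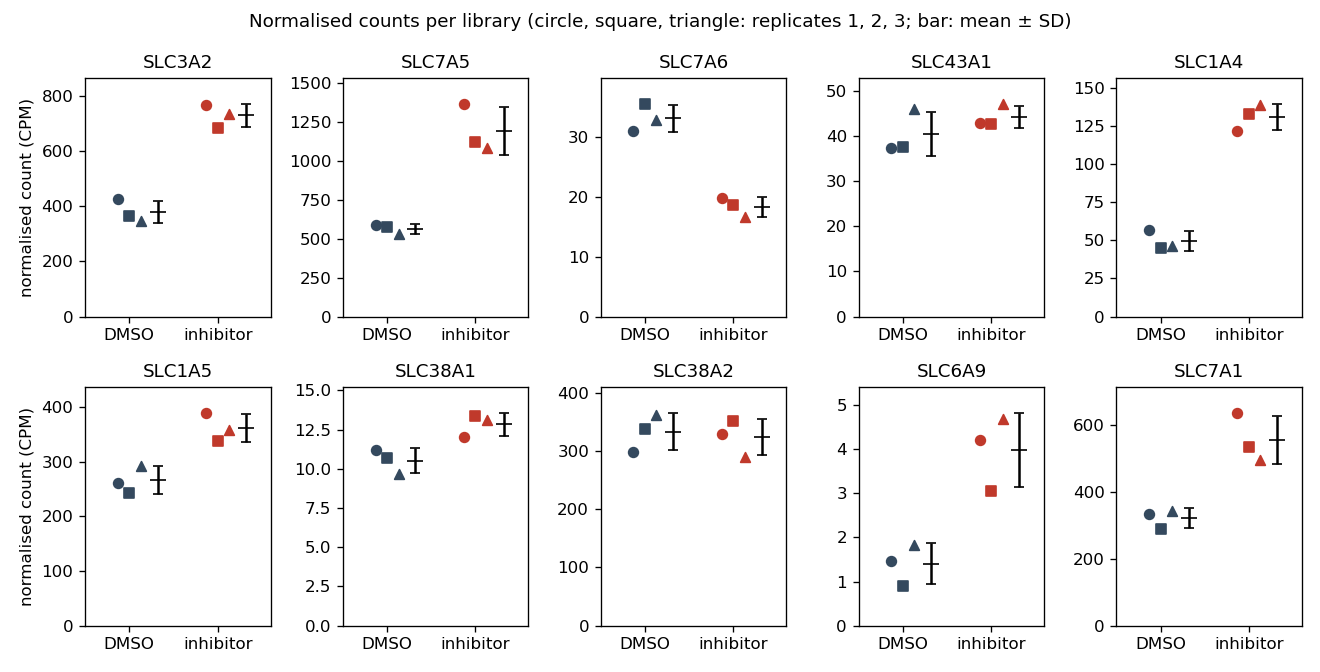
Normalised counts (CPM, vertical axes from 0) of the 10 transporter genes in each of the 3 DMSO and 3 inhibitor libraries; marker shapes are replicate numbers and bars give the mean ± SD. The inhibitor libraries lie wholly above the DMSO libraries for SLC3A2, SLC7A5, SLC1A4, SLC1A5, SLC38A1, SLC6A9 and SLC7A1, wholly below for SLC7A6, and overlap them for SLC43A1 and SLC38A2.

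Counts report the part of each transcript that the panel amplifies, so they follow only the isoforms with that part, and a shift between isoforms would look like a shift of the gene. Amplicons differ in efficiency, so counts do not rank different genes by transcript level. Ratios between genes were compared only across the groups. In bulk RNA, a change in the make-up of the cells and a change in the RNA of each cell cannot be told apart.

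The starts of these genes are shown here because 6 of them rose together. RefSeq promoter windows of GRCh38.p14, which run from 250 bases before a transcript start to 50 after it, were found for all 10 genes, 17 windows in all. They were searched on both strands for TGATGNAA, the core of the amino acid response element to which ATF4 binds with C/EBP partners, and for CACGTG, the E-box that MYC with its partner MAX binds. TGATGNAA was found in 1 window of each of 5 genes (SLC3A2, SLC1A4, SLC1A5, SLC7A1 and SLC38A1), and in 3.62% of the 35116 windows in the table. CACGTG was found in 1 window of each of 3 genes (SLC7A5, SLC1A5 and SLC43A1), and in 7.26% of all windows. No match overlapped another. The stretches around the matches follow, 5′ to 3′ on the strand of the gene, with the match in capitals. A match written as TTNCATCA is TGATGNAA on the other strand. These letters are a description of the windows, and which start HT-1080 cells use was not tested.
SLC3A2, chr11:62881725-62881748, plus strand: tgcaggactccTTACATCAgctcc
SLC1A4, chr2:64989381-64989410, plus strand: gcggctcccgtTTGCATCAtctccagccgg
SLC1A5, chr19:46784893-46784922, minus strand: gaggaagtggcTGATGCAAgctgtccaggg
SLC7A1, chr13:29595663-29595692, minus strand: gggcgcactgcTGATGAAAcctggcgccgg
SLC38A1, chr12:46266502-46266531, minus strand: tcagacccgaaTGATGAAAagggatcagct
SLC7A5, chr16:87869620-87869649, minus strand: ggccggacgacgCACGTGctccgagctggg
SLC1A5, chr19:46787326-46787355, minus strand: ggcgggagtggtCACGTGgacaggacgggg
SLC43A1, chr11:57515797-57515826, minus strand: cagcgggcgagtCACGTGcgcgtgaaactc

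Of the 5 genes with the response element core, 4 rose and SLC38A1 was not called. Of the 5 genes whose windows did not hold it, SLC7A5 and SLC6A9 rose, SLC7A6 fell, and SLC38A2 and SLC43A1 were not called. The match lay within 10 bases of the start in SLC1A4 (bases -7 to 1, counted from the start as base 1) and in SLC38A1 (bases -4 to 4). It lay at bases 8 to 15 in SLC7A1 and 38 to 45 in SLC3A2, after the start, and at bases -97 to -90 of the third window of SLC1A5. Other windows of SLC3A2, SLC1A4, SLC1A5 and SLC38A1 did not hold the response element core. Of the 3 genes with CACGTG, SLC7A5 and SLC1A5 rose and SLC43A1 was not called. How many of all genes with either motif rose was not counted, and sequence outside the windows was not searched. Whether either motif bears on these changes was not tested.

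SLC3A2 encodes the heavy chain of the CD98 complex, a glycoprotein that carries no amino acids itself but brings its light chains to the cell surface. Its normalised counts were 767, 684 and 736 CPM with the inhibitor and 425, 365 and 346 CPM with DMSO. Every inhibitor library was above every DMSO library, and the lowest of them was 1.61 times the highest DMSO library. The mean went from 378.5 ± 41.1 to 729 ± 41.8 CPM (SD, n = 3 each), a log2 fold change of 0.95 ± 0.10 (SE; edgeR adjusted p = 9.71e-07).

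SLC7A5 encodes the light chain of CD98 that exchanges large neutral amino acids such as leucine, usually for glutamine leaving the cell. It had 1367, 1123 and 1084 CPM with the inhibitor and 589, 575 and 529.9 CPM with DMSO. The groups were far apart, with the lowest inhibitor library at 1.84 times the highest DMSO library, and inhibitor replicate 1 was the highest of all. SLC7A5 rose by 1.08 ± 0.11 (SE) on the log2 scale, or 2.11-fold with a 95% interval of 1.81 to 2.46 (edgeR adjusted p = 2.13e-07). Of all tested genes, 98.5% had a smaller rise.

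SLC7A6 encodes another light chain of the same heavy chain, which exports cationic amino acids such as arginine in exchange for neutral ones taken up with sodium. It was the member that fell. Its normalised counts were 19.8, 18.6 and 16.6 CPM with the inhibitor and 31.1, 35.6 and 32.8 CPM with DMSO, from 124 to 221 and 395 to 551 counts. No library overlapped the other group, and the highest inhibitor library was at 0.638 times the lowest DMSO library. The mean went from 33.2 ± 2.27 to 18.4 ± 1.62 CPM, a log2 fold change of -0.85 ± 0.12 (edgeR adjusted p = 4.09e-05), and the gene ranked 175 by size of fall among all tested genes.

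The ratio of these chains within each library was compared next. The log2 ratio of SLC7A5 to SLC3A2 was 0.83, 0.72 and 0.56 with the inhibitor and 0.47, 0.66 and 0.62 with DMSO. These ranges overlapped, and the difference of 0.12 ± 0.10 (SE) between the means was not beyond the spread (two-sided exact permutation p = 0.3). The log2 ratio of SLC7A6 to SLC7A5 was -6.10, -5.90 and -6.01 with the inhibitor and -4.24, -4.01 and -4.01 with DMSO. The groups were wide apart, and the ratio with the inhibitor was 0.264 times that with DMSO, a log2 difference of -1.92 ± 0.09. Its exact permutation p of 0.1 is the smallest that 3 against 3 libraries allow, and it was 0.167 after adjustment over the 5 pairs compared.

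SLC43A1 encodes a carrier of branched-chain and other large neutral amino acids that works by facilitated diffusion, without a heavy chain. It had 43.04, 42.8 and 47.2 CPM with the inhibitor and 37.5, 37.7 and 46.1 CPM with DMSO. DMSO replicate 3 lay among the inhibitor libraries, so the groups overlapped. The log2 fold change was 0.13 ± 0.12 (edgeR adjusted p = 0.449), with a 95% interval of the fold from 0.929 to 1.3. Its log2 ratio to SLC7A5 went from -3.80 ± 0.25 with DMSO to -4.74 ± 0.23 with the inhibitor (SD), without overlap (difference -0.93 ± 0.20, SE; exact permutation p = 0.1, adjusted 0.167).

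**Figure D2:**
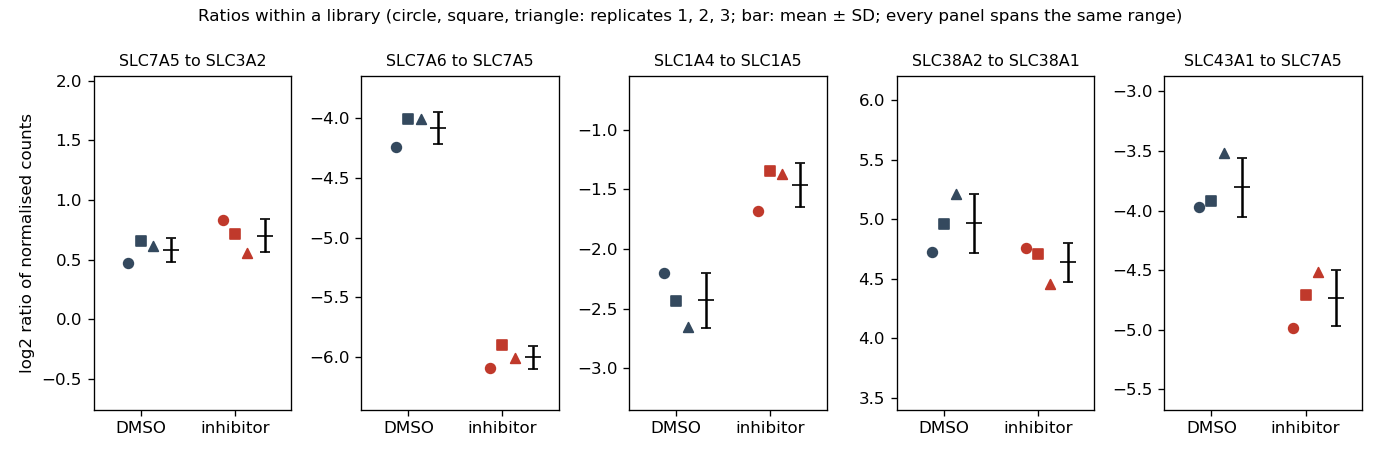
log2 ratio of normalised counts of one transporter gene to another within each library (vertical axes, the same span in every panel), for the 5 pairs compared in 3 DMSO and 3 inhibitor libraries; bars give the mean ± SD. The ratios of SLC7A6 to SLC7A5 and of SLC43A1 to SLC7A5 are lower in every inhibitor library and that of SLC1A4 to SLC1A5 is higher, while the other pairs overlap.

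SLC1A4 and SLC1A5 encode sodium-dependent exchangers of neutral amino acids. SLC1A4 carries alanine, serine, cysteine and threonine, and SLC1A5 is a main route for glutamine in many tumour cells. SLC1A4 had 122, 133 and 138.5 CPM with the inhibitor and 57.03, 44.8 and 46.4 CPM with DMSO. Its lowest inhibitor library was 2.14 times the highest DMSO library, the widest gap among the 10 genes. SLC1A4 rose by a log2 fold change of 1.41 ± 0.11 (2.65-fold, 95% interval 2.25 to 3.12, edgeR adjusted p = 9.28e-09), and it had the smallest p of the 10, ranked 22 among all tested genes.

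SLC1A5 had 390.0, 338 and 359 CPM with the inhibitor and 262, 242.5 and 293 CPM with DMSO. The groups did not overlap, but the lowest inhibitor library was only 1.15 times the highest DMSO library. SLC1A5 rose by 0.45 ± 0.10 on the log2 scale (edgeR adjusted p = 0.00414), the smallest of the 6 rises, and it did not pass when edgeR tested against a 1.2-fold change (adjusted p = 0.117). The log2 ratio of SLC1A4 to SLC1A5 was -1.68, -1.35 and -1.37 with the inhibitor and -2.20, -2.43 and -2.66 with DMSO. It was higher in every inhibitor library, by 0.96 ± 0.17 (SE) between the means, so that SLC1A4 gained 1.95-fold relative to SLC1A5 (exact permutation p = 0.1, adjusted 0.167).

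SLC38A1 and SLC38A2 encode carriers that take up small neutral amino acids, glutamine among them, together with sodium. SLC38A2 is known as a carrier whose mRNA and activity rise when cells lack amino acids. Here SLC38A2 had 330.0, 353 and 291 CPM with the inhibitor and 299.5, 339 and 364 CPM with DMSO. Both the highest and the lowest library came from replicate 3 of their groups, and the groups overlapped throughout. The log2 fold change was -0.04 ± 0.11 (edgeR adjusted p = 0.826), and the 95% interval of the fold ran from 0.835 to 1.13.

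SLC38A1 had 12.02, 13.4 and 13.1 CPM with the inhibitor and 11.2, 10.7 and 9.64 CPM with DMSO. All inhibitor libraries were above the DMSO libraries, the lowest of them at 1.07 times the highest, but the log2 fold change of 0.28 ± 0.15 did not pass (edgeR adjusted p = 0.192, 95% interval of the fold 0.982 to 1.5). The values rest on 98 to 176 counts per library. The log2 ratio of SLC38A2 to SLC38A1 was 4.64 ± 0.16 with the inhibitor and 4.96 ± 0.25 with DMSO (SD), and the groups overlapped (exact permutation p = 0.2, adjusted 0.25).

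SLC6A9 encodes a sodium- and chloride-dependent glycine transporter. It was counted least, with 47, 28 and 35 counts in the inhibitor libraries and 23, 14 and 22 in the DMSO libraries. In normalised counts this was 4.22, 3.05 and 4.69 CPM against 1.46, 0.90 and 1.83 CPM, and the groups did not overlap. SLC6A9 rose by a log2 fold change of 1.52 ± 0.29, the largest of the 10 but also the least precise, with a 95% interval of the fold from 1.88 to 4.38 (edgeR adjusted p = 8.48e-04).

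SLC7A1 encodes the main carrier of the cationic amino acids arginine and lysine in many cell types. It had 638, 537 and 498 CPM with the inhibitor and 334.5, 289 and 344 CPM with DMSO. The groups were apart, with the lowest inhibitor library at 1.45 times the highest DMSO library. SLC7A1 rose by 0.79 ± 0.11 on the log2 scale, or 1.73-fold with a 95% interval of 1.48 to 2.03 (edgeR adjusted p = 2.34e-05). SLC7A1 takes cationic amino acids up and SLC7A6 is known mainly for their exit, and the mRNA of the 2 genes changed in opposite directions. SLC7A2, another carrier of cationic amino acids, was not called, and transport was not measured.

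In order of log2 fold change the genes ran SLC6A9, SLC1A4, SLC7A5, SLC3A2, SLC7A1, SLC1A5, SLC38A1, SLC43A1, SLC38A2 and SLC7A6. Neighbours in this order differed by less than the sum of their standard errors, with 3 exceptions. These were the steps from SLC1A4 to SLC7A5, from SLC7A1 to SLC1A5 and from SLC38A2 to SLC7A6. SLC6A9 and SLC1A4 ranked 60 and 81 by size of rise among the 11391 tested genes, SLC7A5 168, SLC3A2 242, SLC7A1 368 and SLC1A5 1225.

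**Figure D3:**
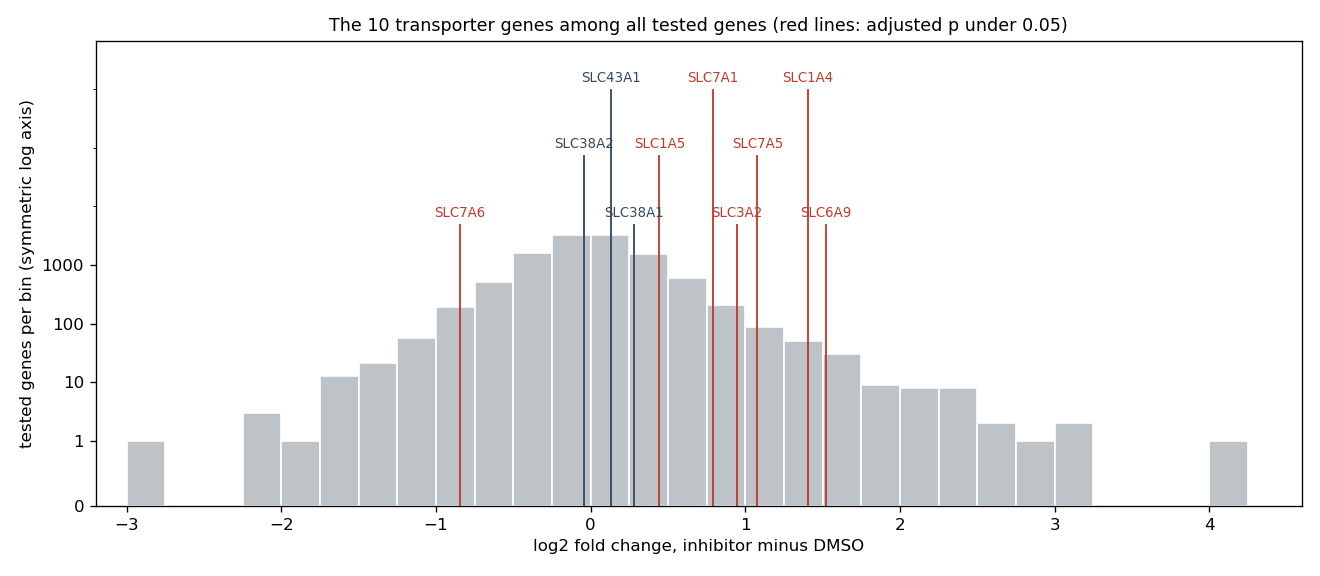
Number of tested genes (vertical symmetric log axis) by log2 fold change of inhibitor minus DMSO (horizontal axis, bins of 0.25), with a line at each of the 10 transporter genes; line heights only separate the names, and the 2 genes with fitted values above 7 are outside the axis. SLC6A9, SLC1A4 and SLC7A5 lie in the right tail above 1, SLC7A6 lies in the left tail at -0.85, and SLC38A2 and SLC43A1 lie in the middle of the distribution.

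The inhibitor libraries were less deep than the DMSO libraries. In libraries thinned to the smallest total the same 6 genes rose and SLC7A6 fell, with log2 fold changes of 1.08 for SLC7A5, 1.39 for SLC1A4, 1.204 for SLC6A9 and -0.87 for SLC7A6. SLC6A9 had the highest adjusted p of the 7 called genes there (edgeR, 0.0111).

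Other transporters of the plasma membrane were described from a list of 27 genes. Of these, 10 had no count in any library and 9 were tested. SLC7A11 and SLC43A2 rose, SLC1A3 fell and 6 were not called, with a median log2 fold change of 0.09. The called share was 33.3%, against 20.2% of all tested genes, and a list of 9 genes is too short to tell these shares apart. SLC7A11, a light chain that pairs with SLC3A2 and exchanges cystine for glutamate, had 157, 135 and 162 CPM with the inhibitor and 103, 90.9 and 86.7 CPM with DMSO (log2 fold change 0.69 ± 0.11, edgeR adjusted p = 9.2e-05). Of the light chains of CD98, SLC7A5 and SLC7A11 thus rose and SLC7A6 fell. A further light chain, SLC7A8, had 1.37 ± 0.32 CPM with the inhibitor and 1.35 ± 0.32 with DMSO and was not called.

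SLC43A2, a relative of SLC43A1 that also carries large neutral amino acids, rose from 3.38 ± 0.98 to 6.52 ± 2.30 CPM (log2 fold change 0.91 ± 0.25, edgeR adjusted p = 0.0139). It no longer passed when DMSO replicate 3 was left out (adjusted p = 0.0723), nor without either of inhibitor replicates 1 and 3 (0.059 and 0.074), nor against a fold of 1.2 (0.0551). SLC1A3, which carries glutamate and aspartate and belongs to the same family as SLC1A4 and SLC1A5, went from 6.65 ± 0.92 to 2.73 ± 0.67 CPM. Its log2 fold change was -1.31 ± 0.23 (edgeR adjusted p = 3.35e-04), which ranked 34 by size of fall. The taurine carrier SLC6A6 (0.24 ± 0.10), the neutral amino acid carrier SLC6A15 (0.20 ± 0.12) and the cationic amino acid carrier SLC7A2 (0.00 ± 0.12) were counted well and not called.

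Of 10 genes for amino acid transporters of lysosomes, 8 were tested and 0 were called by edgeR, DESeq2 or limma voom. In edgeR 20.2% of all tested genes were called, and a list of 8 genes is too short to tell 0 from that share. At an unadjusted p under 0.05 in edgeR there was 1, SLC15A4, which carries histidine and peptides (log2 fold change 0.27 ± 0.12, adjusted p = 0.111). Among all 11391 tested genes 3801 were under that threshold, so 1 of 8 does not stand out. The median log2 fold change of this list was 0.08. SLC38A9, an arginine sensor of mTORC1 at the lysosome, had 6.90 ± 1.92 CPM with the inhibitor and 7.56 ± 1.48 with DMSO. There were 184 other tested genes whose symbol in the tables begins with SLC, which include the 9 above and 5 of the 8 lysosomal genes. Of the 184, 21.2% were called, against 20.2% of all tested genes. By direction 28 (15.2%) rose and 11 (5.98%) fell, against 9.92% and 10.3% of all tested genes. The median log2 fold change of the 184 was 0.09.

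**Figure D4:**
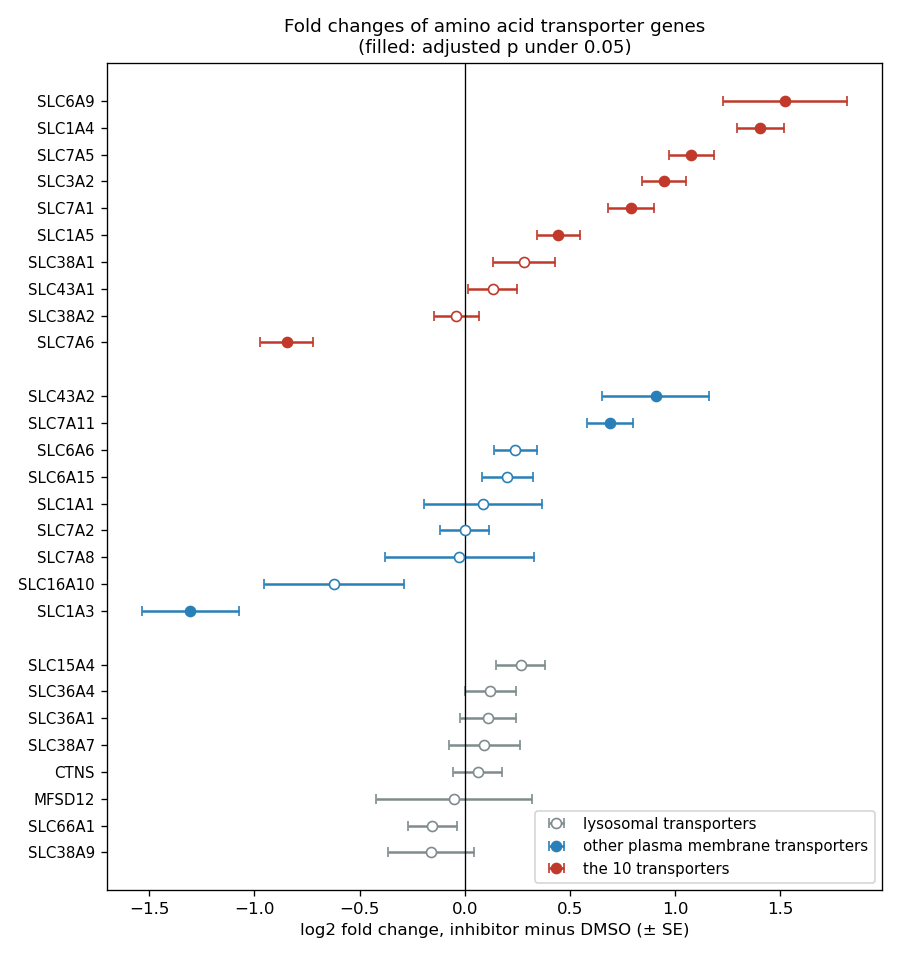
log2 fold change of inhibitor minus DMSO (horizontal axis, ± SE) for the 10 transporter genes, the 9 tested genes of other plasma membrane transporters and the 8 tested genes of lysosomal transporters; filled points had an adjusted p under 0.05. Of the 10, 6 points are filled on the right and SLC7A6 on the left, and all lysosomal points are open and within 0.3 of 0.

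A list of 9 genes held known regulators of these carriers and TRIB3, included as a target of ATF4. Of these, 8 were tested, 6 rose and 0 fell, against 9.92% and 10.3% of all tested genes. This list, too, was drawn up with earlier results of these data known. ATF4 rose from 275 ± 35.8 to 828 ± 109.8 CPM (log2 fold change 1.59 ± 0.12). CEBPG, which encodes a partner of ATF4 on response elements (1.26 ± 0.17), TRIB3, a pseudokinase gene that ATF4 activates (2.25 ± 0.11), and MYC (0.81 ± 0.11) rose as well (edgeR adjusted p from 2.98e-12 to 2.19e-05 for these 4 genes). CEBPB rose by 0.82 ± 0.25 (adjusted p = 0.0214), a call lost without inhibitor replicate 1 (0.175), without DMSO replicate 3 (0.105), in thinned libraries (0.109) and against a fold of 1.2 (0.0804). NEDD4L, a ubiquitin ligase that takes membrane proteins off the surface, rose by 0.42 ± 0.11 (adjusted p = 0.00803), a call lost without DMSO replicate 3 (0.0595) and against a fold of 1.2 (0.17). EIF2AK4, the kinase that senses uncharged tRNA, and EIF2AK3, the kinase of the unfolded protein response, had log2 fold changes of -0.23 ± 0.11 and -0.19 ± 0.21 (adjusted p = 0.144 and 0.578). DDIT3 had too few counts to test. Whether any of these factors set the transporter levels was not tested.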

How the data were processed

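The authors deposited 1 table of whole-number read counts per gene symbol for each of the 6 libraries, without normalization. Per the labels, an Ion AmpliSeq Transcriptome panel was used to amplify parts of transcripts in one multiplex reaction before Ion Proton sequencing. The submitters' processing notes name HTSeq, DESeq2 1.20.0 and hg19. An aligner, an annotation and a strand setting were not given in the sources used here. Groups came from the sample titles.

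The count test was run in edgeR 4.0.16 under R 4.3.3 (filterByExpr, TMM factors from 0.9735 to 1.047, glmQLFit and glmQLFTest without covariates, Benjamini-Hochberg over 11391 genes). These genes held 99.924% of the counts. CPM are counts scaled to 1000000 per library with the TMM factors. SE was taken from the test as the absolute log2 fold change over the root of F, and 95% intervals use it with the test's degrees of freedom. Ratios within a library are differences of log2 CPM (prior count 2). Library totals from 7644478 to 15336351 set a floor of 3 counts at 0.196 to 0.392 CPM, for counting error only, since the reads come from PCR and no molecular identifiers are described.

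The 10 members, the other lists and the rule for naming genes (all members, all tested regulators, and every called gene of the other lists) were chosen with earlier results of these data known. Genes that were not called are named to fill out a family. The procedure was tested on simulated counts of 11305 genes. There 45.83% of 48 changes of 0.5 on the log2 scale and 90.0% of 50 changes of 1 were recovered, and 12 calls (6.704%) were false. Far fewer genes were changed in the simulation than the 2298 called in these data, so the rates may differ here. Alternatives were 3 other scalings, 2 other filters, a replicate block, DESeq2 1.42.0, limma 3.58.1 voom, a test against a fold of 1.2, thinned libraries and each library left out. Replicates of a group were unlike beyond sampling noise (chi-square over its degrees of freedom 9.32 to 14.7), so each library counted once. The libraries are described as biological replicates. If they did not come from separate cultures, the p-values measure a spread between libraries that may be technical. A further gene fixed as a marker was left out of the lists and is not reported here. The amplicon positions and protein sequences were not used here.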

Additional observations from a re-analysis of the deposited data

How the results depend on the processing

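Over 16 alternative settings the 7 called transporter genes kept their direction. Their calls held wherever the gene was tested, except that SLC1A5 was not called against a fold of 1.2, which left 5 that rose. SLC6A9 was not tested at a minimum mean of 10 CPM, which also left 5. Of the genes that were not called, SLC38A1 and SLC43A1 had positive values throughout (log2 fold change 0.21 to 0.33 and 0.06 to 0.23), and SLC38A2 ran from -0.12 to 0.03. The lowest and highest values were 0.97 and 1.14 for SLC7A5, 1.204 and 1.73 for SLC6A9, and -0.92 and -0.79 for SLC7A6.

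With the replicate block, 6 transporter genes rose, 1 fell and 2223 genes were called in all, and no transporter call changed. Deviations of same-numbered libraries from their group means correlated by 0.0317, -0.0166 and 0.00693, so the numbers were not taken to pair the samples. In all, 829 genes were called against a fold of 1.2, and 1405 to 2246 with 1 library left out. Of the other plasma membrane transporters, 1 rose and 0 fell with the 10 CPM minimum (fewer genes tested), 1 rose against a fold of 1.2, and 1 to 2 rose with 1 library left out. Upper-quartile scaling gave 1251 genes that rose and 1022 that fell. Genes such as SLC6A9 and SLC38A1, with few counts, have the widest intervals at this depth.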
